A study of Mus musculus with 8 samples.

Results

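The 10 genes described here encode proteins of the T cell receptor complex and of T cell signalling, namely *Cd3e*, *Cd3d*, *Cd3g*, *Trac*, *Cd4*, *Cd8a*, *Lck*, *Cd28*, *Ctla4* and *Il7r*. They were taken by symbol from a table of counts for 54188 genes, and all 10 symbols were found in it. The counts come from RNA-seq of myeloid cells of sanroque mice, which are homozygous for the san allele of *Roquin* on a C57BL/6 background and develop a lupus-like disease. CD11b+Gr-1hi and CD11b+Gr-1lo cells (written CD11+ in the labels) were sorted from the spleen (SP) and bone marrow (BM) of mice aged 20 weeks and labelled female. Libraries 5 and 6 are SP Gr-1hi, libraries 7 and 8 SP Gr-1lo, libraries 9 and 10 BM Gr-1hi, and libraries 11 and 12 BM Gr-1lo. All 4 groups carry the san allele on both chromosomes and no wild-type group was sequenced with them, so no value below bears on the allele itself. The labels call the Gr-1hi cells G-MDSC and the Gr-1lo cells M-MDSC (granulocytic and monocytic myeloid-derived suppressor cells), and T cell genes were not used for the sort.

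The T cell receptor recognizes peptides on MHC molecules through its alpha and beta chains and signals through the CD3 chains and the zeta chain. CD4 and CD8 are coreceptors that bring the kinase LCK to the receptor, CD28 adds a costimulatory signal that CTLA-4 restrains, and the IL-7 receptor maintains naive and memory T cells. Roquin is an RNA-binding protein that represses the *Icos* mRNA in T cells, and sanroque mice are known for excess ICOS and follicular helper T cells. Several of these genes are also known outside conventional T cells: *Cd4* in some dendritic cells, *Cd8a* in some dendritic cells, and *Il7r* in lymphoid progenitors and innate lymphoid cells.

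The libraries held 33453580 to 68316154 counts, so that 3 counts, the limit that a count of 0 allows, correspond to 0.0347 to 0.124 CPM (counts scaled to a common depth of 1000000). CPM here are normalized by the TMM factors of edgeR, and intervals and limits on counts cover counting error only. The labelled subsets were checked by *Ly6g*, the antigen of granulocytes bound by Gr-1 antibody, at 330 to 801 CPM in the Gr-1hi libraries and 3.07 to 8.22 CPM in the Gr-1lo libraries. *Csf1r*, the receptor that marks monocytes, was at 132 to 375 CPM in Gr-1hi and 436 to 754 CPM in Gr-1lo libraries, and *Itgam*, which encodes CD11b, was at 734 to 4903 CPM throughout. The label female did not match 7 of the 8 libraries, because the Y-linked *Ddx3y* had 1595 to 4902 counts in them and 0 in library 5. *Xist* reached 12032 and 9898 counts in libraries 5 and 7 and no more than 5 counts elsewhere, so library 7 held reads of both genes. Results for SP cells are therefore also given without libraries 5 and 7 where that changed a call. Each group has 2 libraries, and no label ties libraries to individual mice.

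The chains of the CD3 complex are encoded side by side on chromosome 9 (GRCm38). *Cd3g* (44969572-44980431, minus strand) and *Cd3d* (44981786-44987339, plus strand) face each other head to head with 1354 bases between them. *Cd3e* (44998740-45009627, minus strand) lies tail to tail with *Cd3d*, with 11400 bases between their 3′ ends. Their promoters are shown because *Cd3d* departed from its neighbours in BM Gr-1hi cells. The 250 bases before each RefSeq start (GRCm38.p6) are given 5′ to 3′ on the strand of the gene, with matches to any of 5 motifs in capitals, read on both strands. The letters searched were CAGNTG for the E-box of basic helix-loop-helix factors, AGGAAG for the ETS family, TGTGGT for RUNX factors, CTTTGA for TCF and LEF factors, and AGATAA for GATA factors. No matches overlapped each other. The windows are chr9:44980432-44980681 for *Cd3g* (minus), chr9:44981536-44981785 for *Cd3d* (plus) and chr9:45009612-45009861 for *Cd3e* (minus).
Cd3g: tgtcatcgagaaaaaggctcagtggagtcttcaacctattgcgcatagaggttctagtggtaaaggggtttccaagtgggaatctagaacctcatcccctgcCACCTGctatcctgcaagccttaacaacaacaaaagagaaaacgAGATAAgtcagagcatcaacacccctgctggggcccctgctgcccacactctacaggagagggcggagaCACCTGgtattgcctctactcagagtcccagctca
Cd3d: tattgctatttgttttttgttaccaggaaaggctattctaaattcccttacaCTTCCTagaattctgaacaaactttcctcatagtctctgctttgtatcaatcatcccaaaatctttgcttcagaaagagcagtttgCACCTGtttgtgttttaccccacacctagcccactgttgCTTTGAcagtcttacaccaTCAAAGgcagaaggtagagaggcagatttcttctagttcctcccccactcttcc
Cd3e: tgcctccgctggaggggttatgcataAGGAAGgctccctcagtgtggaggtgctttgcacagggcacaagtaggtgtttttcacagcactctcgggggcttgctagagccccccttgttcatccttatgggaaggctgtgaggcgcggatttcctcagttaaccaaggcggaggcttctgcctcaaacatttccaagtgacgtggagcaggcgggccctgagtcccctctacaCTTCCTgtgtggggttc
The *Cd3d* window held 2 TCF/LEF matches, 1 E-box and 1 ETS match. The *Cd3g* window held 2 E-boxes and 1 GATA match, and the *Cd3e* window held 2 ETS matches and none of the other motifs. Of 32851 promoter windows of this length, 44.8% held an E-box match, 29.5% an ETS match, 14.0% a RUNX match, 13.8% a TCF/LEF match and 9.99% a GATA match. These matches describe the letters only. Windows were found for 7 of the 10 genes, and none for *Cd4*, *Cd28* and *Trac*.

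All 10 genes were at their highest in SP Gr-1hi cells, and all had more CPM in both SP libraries of a subset than in both BM libraries of that subset. Summed over the 10 genes, the level was 117 and 74.5 CPM in SP Gr-1hi libraries, 25 and 37.7 in SP Gr-1lo, 11.9 and 8.21 in BM Gr-1hi, and 2.21 and 2.38 in BM Gr-1lo. The sum therefore fell in the order SP Gr-1hi, SP Gr-1lo, BM Gr-1hi, BM Gr-1lo without overlap between groups. The levels were low throughout, since the 10 genes together took 0.0101% of the counts of library 5, where they were highest. In RNA from a sorted population, fewer cells of a type and less RNA per cell cannot be told apart.

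**Figure D1:**
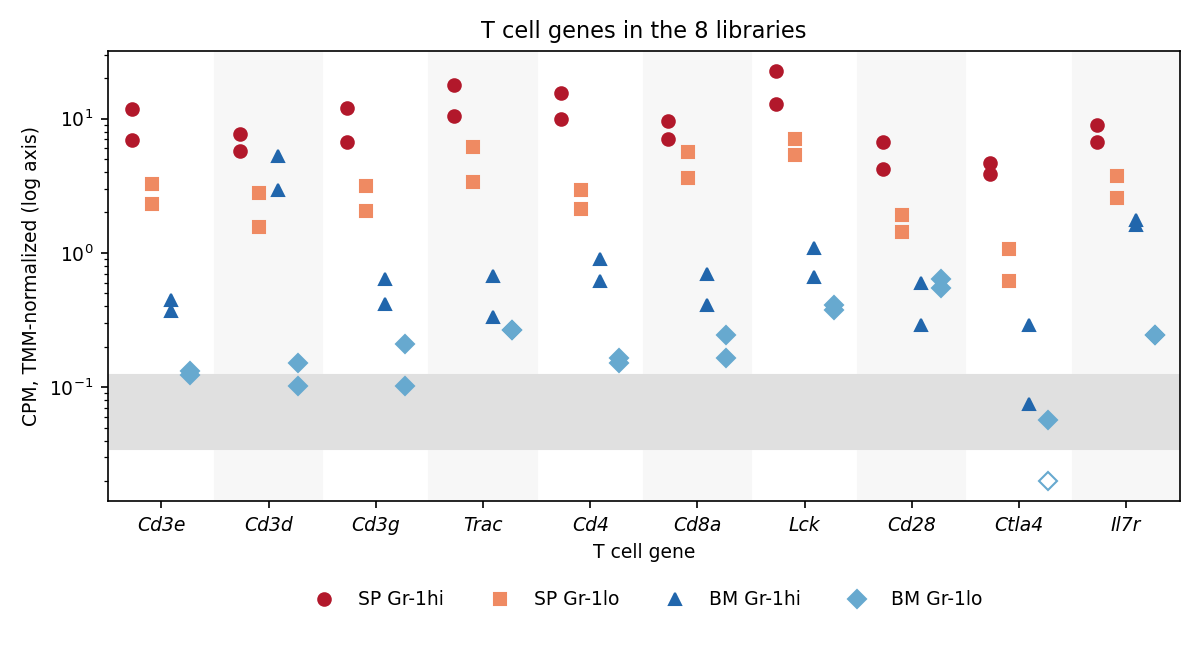
CPM of the 10 T cell genes (log axis) in each of the 8 libraries, 1 symbol per library, shaped and coloured by group. The grey band is the range of 3 counts (0.0347 to 0.124 CPM) and the open symbol at the bottom is the library with 0 counts of *Ctla4*. SP symbols lie above BM symbols for every gene within a subset, and *Cd3d* in BM Gr-1hi cells (5.31 and 2.93 CPM) lies above SP Gr-1lo cells (1.56 and 2.77 CPM).

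Among the receptor chains, *Cd3e*, which carries a signalling motif and pairs with the other CD3 chains, was at 11.8 and 6.89 CPM in SP Gr-1hi, 2.30 and 3.27 in SP Gr-1lo, 0.448 and 0.371 in BM Gr-1hi, and 0.123 and 0.132 in BM Gr-1lo libraries. *Cd3g*, the gamma chain, followed nearly the same course with 11.9, 6.70, 2.07, 3.15, 0.635, 0.413, 0.102 and 0.208 CPM in libraries 5 to 12. *Trac*, the constant region of the alpha chain, was at 17.9 and 10.5 CPM in SP Gr-1hi, 3.37 and 6.15 in SP Gr-1lo, 0.673 and 0.330 in BM Gr-1hi, and 0.266 and 0.264 in BM Gr-1lo libraries. The 4 groups of libraries did not overlap for these 3 genes. *Cd3d*, the delta chain, was at 7.68 and 5.77 CPM in SP Gr-1hi, 1.56 and 2.77 in SP Gr-1lo, 5.31 and 2.93 in BM Gr-1hi, and 0.102 and 0.151 in BM Gr-1lo libraries. It was thus higher in both BM Gr-1hi libraries than in either SP Gr-1lo library, which held for no other of the 10 genes.

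The coreceptors differed in their order between SP subsets. *Cd4* was at 15.6 and 10.0 CPM in SP Gr-1hi, 2.13 and 2.94 in SP Gr-1lo, 0.897 and 0.619 in BM Gr-1hi, and 0.164 and 0.151 in BM Gr-1lo libraries. *Cd8a* was at 9.61 and 7.08 CPM in SP Gr-1hi, 3.61 and 5.61 in SP Gr-1lo, 0.411 and 0.702 in BM Gr-1hi, and 0.164 and 0.245 in BM Gr-1lo libraries. The ratio of *Cd4* to *Cd8a* counts was 1.62 and 1.41 in SP Gr-1hi libraries and 0.591 and 0.525 in SP Gr-1lo libraries, so the groups did not overlap. *Lck*, the kinase that starts receptor signalling, was at 22.5 and 12.8 CPM in SP Gr-1hi, 5.36 and 7.10 in SP Gr-1lo, 1.08 and 0.660 in BM Gr-1hi, and 0.410 and 0.378 in BM Gr-1lo libraries.

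*Ctla4* was the rarest in BM cells, with 4.70 and 3.86 CPM in SP Gr-1hi and 0.612 and 1.08 in SP Gr-1lo libraries against 2 and 7 counts in BM Gr-1hi and 0 and 3 counts in BM Gr-1lo libraries. *Cd28* was at 6.72 and 4.24 CPM in SP Gr-1hi, 1.43 and 1.92 in SP Gr-1lo, 0.598 and 0.289 in BM Gr-1hi, and 0.635 and 0.548 in BM Gr-1lo libraries. It was the only one of the 10 genes whose mean level in BM Gr-1lo cells (0.591 ± 0.0618 CPM, SD, n = 2) was above that in BM Gr-1hi cells (0.443 ± 0.219), and those libraries overlapped. *Il7r*, the alpha chain of the IL-7 receptor, was at 8.95 and 6.70 CPM in SP Gr-1hi, 2.57 and 3.75 in SP Gr-1lo, 1.76 and 1.61 in BM Gr-1hi, and 0.246 and 0.245 in BM Gr-1lo libraries.

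Compared per length of exons, as TPM (transcripts scaled to a sum of 1000000), *Trac* led in both SP subsets with a mean of 30.9 ± 13.0 TPM (SD, n = 2) in Gr-1hi and 14.9 ± 5.76 in Gr-1lo cells. *Lck* followed at 12.3 ± 5.42 and 6.26 ± 1.06 TPM, without overlap with *Trac*. In SP Gr-1hi cells each gene from *Lck* down to *Il7r* overlapped its neighbour in this order, and *Cd28* came last at 1.82 ± 0.678 TPM. In BM Gr-1hi cells the order was led by *Cd3d* at 3.83 ± 1.69 TPM, above *Trac* at 0.906 ± 0.466 without overlap. In BM Gr-1lo cells *Trac* led at 0.874 ± 0.0157 TPM, followed by *Lck* and *Cd28*, and the 10 genes were all below 1 TPM.

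The first comparison asked whether SP Gr-1lo cells differ from BM Gr-1lo cells, and all 10 T cell genes were higher in SP. A gene was called where the adjusted p was 0.05 or less and the fold change (FC) 2 or more in edgeR's quasi-likelihood test, and among all 17650 genes tested 3.84% were called higher in SP and 0.215% lower. The log2 FC had a median of 4.06 over the 10 genes and of -0.01 over all genes tested. It was 4.43 (SE 0.42, adjusted p = 7.18e-04) for *Cd3e*, 4.47 (SE 0.38) for *Cd8a*, 4.17 (SE 0.47) for *Trac* and 3.68 (SE 0.31) for *Il7r*. *Cd28* had the lowest log2 FC of the 10, 1.51 (SE 0.36, adjusted p = 0.0480), and lost its call with both other scalings and without library 7, 8, 11 or 12 (adjusted p = 0.0825, 0.306, 0.174 and 0.311). *Ctla4* had 122 counts in SP and 3 in BM, a ratio of 30.9 with an exact 95% counting interval of 10.3 to 152, and its call was lost without library 8 or 11 (adjusted p = 0.0542 and 0.0521). The methods of the study name edgeR on quantile-normalized TPM without giving the test, and edgeR's exact test, chosen here for such values, called 1 of the 10 genes, although the log2 FC stayed at 2.44 or more for the other 8 genes that it tested and did not call. Both SP libraries lay above both BM libraries for all 10 genes, as they did for 27.1% of the genes tested.

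In Gr-1hi cells, 9 of the 10 genes were higher in SP than in BM, against 14.0% of all genes tested called higher and 1.48% called lower. The median log2 FC was 4.10 over the 10 genes and 0.03 over all genes. For *Trac* the log2 FC was 4.80 (SE 0.47, adjusted p = 3.60e-04), *Ctla4* 4.57 (SE 0.62), *Cd3e* 4.50 (SE 0.38), *Lck* 4.33 (SE 0.36) and *Cd28* 3.60 (SE 0.40). *Il7r* differed less, with a log2 FC of 2.21 (SE 0.27, adjusted p = 7.80e-04). *Cd3d* was the gene not called, with a log2 FC of 0.70 (SE 0.35, adjusted p = 0.156). Here too both SP libraries lay above both BM libraries for each of the 10 genes, which held for 35.9% of the genes tested. The exact test on quantile-normalized TPM called 6 of the 10. One gene, *Ctla4*, passed the filter on low counts through SP libraries alone, while the other 9 met it in at least 2 BM libraries as well.

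**Figure D2:**
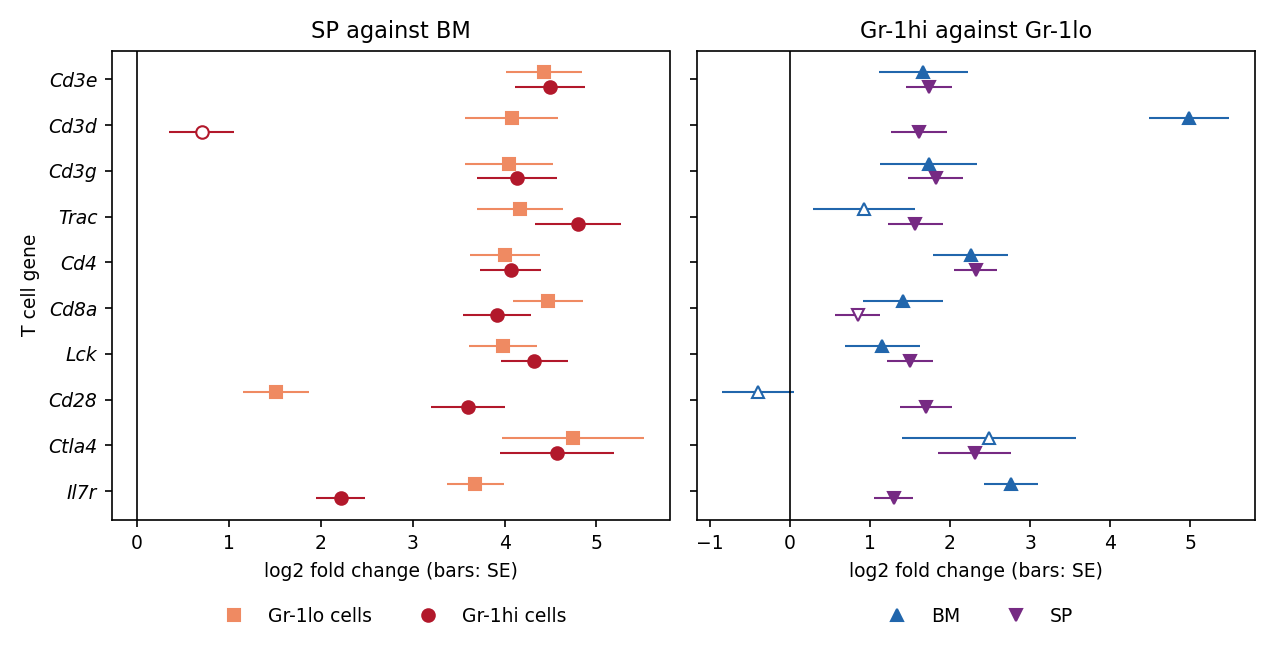
Log2 FC of the 10 T cell genes between SP and BM (left) and between Gr-1hi and Gr-1lo cells (right), with bars for the SE from edgeR and filled symbols for called genes. Most genes lie near 4 on the left in both subsets, while *Cd3d* lies at 0.70 in Gr-1hi cells and *Cd28* at 1.51 in Gr-1lo cells. On the right, *Cd3d* in BM (4.99) stands beyond the other genes.

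The subsets of each tissue were compared next, with the same libraries as above, so these comparisons share samples with the previous ones. Within BM, 7 of the 10 genes were higher in Gr-1hi than in Gr-1lo cells, where 24.2% of all genes tested were called higher and 33.1% lower. *Cd3d* rose by 4.99 on the log2 scale (SE 0.50, adjusted p = 2.26e-05), *Il7r* 2.76 (SE 0.34) and *Cd4* 2.26 (SE 0.47), while *Cd3g*, *Cd3e*, *Cd8a* and *Lck* lay between 1.15 and 1.73. *Ctla4* had a log2 FC of 2.48 with an SE of 1.09 (adjusted p = 0.0652), and the values were 0.93 (SE 0.64, adjusted p = 0.212) for *Trac* and -0.39 (SE 0.45, adjusted p = 0.443) for *Cd28*, none of which was called. Without library 11 the count fell to 3 genes, and with the exact test on quantile-normalized TPM to 1. The median log2 FC of all genes tested was -0.17 in this comparison with TMM scaling and -0.03 with RLE scaling, beside 1.70 for the 10 genes with TMM.

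Within SP, 9 of the 10 genes were higher in Gr-1hi cells, and 22.3% of all genes tested were called higher and 27.4% lower. *Cd4* and *Ctla4* had log2 FCs of 2.32 (SE 0.27, adjusted p = 7.33e-05) and 2.31 (SE 0.46, adjusted p = 0.00184), and the other 7 called genes lay between 1.30 and 1.82. *Cd8a* passed the adjusted p (0.0241) but not the FC, with a log2 FC of 0.85 (SE 0.28). Without libraries 5 and 7, which leaves 1 library in each SP group and assumes that it varies like the other groups, 4 of the 10 genes were called, and the exact test on quantile-normalized TPM called 5. At the stricter threshold that the study used between subsets (adjusted p below 0.01 and FC above 8), none of the 10 was called within SP, although all 10 had an unadjusted p of at most 0.05, and *Cd3d* alone was called within BM.

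The difference between SP and BM depended on the subset for 3 of the 10 genes, by the interaction of tissue and subset in the same model, where 7.74% of all genes tested were called higher and 2.00% lower. The excess in SP was smaller in Gr-1hi than in Gr-1lo cells for *Cd3d*, with a log2 difference of -3.37 (SE 0.63, adjusted p = 0.0120), and for *Il7r*, with -1.47 (SE 0.42, adjusted p = 0.0472). For *Cd28* it was larger in Gr-1hi cells, by 2.09 (SE 0.55, adjusted p = 0.0367). The *Cd3d* call was lost without library 11 (log2 difference -3.13, adjusted p = 0.0529) and kept without each of the other 7. The *Il7r* and *Cd28* calls were less firm, since leaving out single libraries left between 0 and 2 of the 3 genes called, with 0 without library 11 and 1 without library 7, 8, 9, 10 or 12. Without libraries 5 and 7 the *Cd28* call was lost (log2 difference 1.56, adjusted p = 0.177), and the *Cd3d* and *Il7r* calls were kept. For the other 7 genes the log2 difference lay between -0.56 and 0.64 and was not called.

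Counts per count of *Cd3e* show the same departures without any scaling between libraries. There were 0.652, 0.838, 0.679 and 0.848 counts of *Cd3d* per count of *Cd3e* in libraries 5 to 8 and 0.833 and 1.14 in the BM Gr-1lo libraries, against 11.8 and 7.89 in the BM Gr-1hi libraries. The ratio rested on 142 and 71 counts of *Cd3d* and 12 and 9 of *Cd3e* in those last libraries. For *Il7r* it was 0.760 to 1.15 in SP libraries, 3.92 and 4.33 in BM Gr-1hi, and 2.00 and 1.86 in BM Gr-1lo libraries. For *Cd28* it was 0.570 to 0.624 in the 4 SP libraries, and 5.17 and 4.14 in BM Gr-1lo, where 31 and 29 counts of *Cd28* stood against 6 and 7 of *Cd3e*. The proportions of *Cd3g* to *Cd3e*, in contrast, stayed between 0.833 and 1.57 in all 8 libraries.

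**Figure D3:**
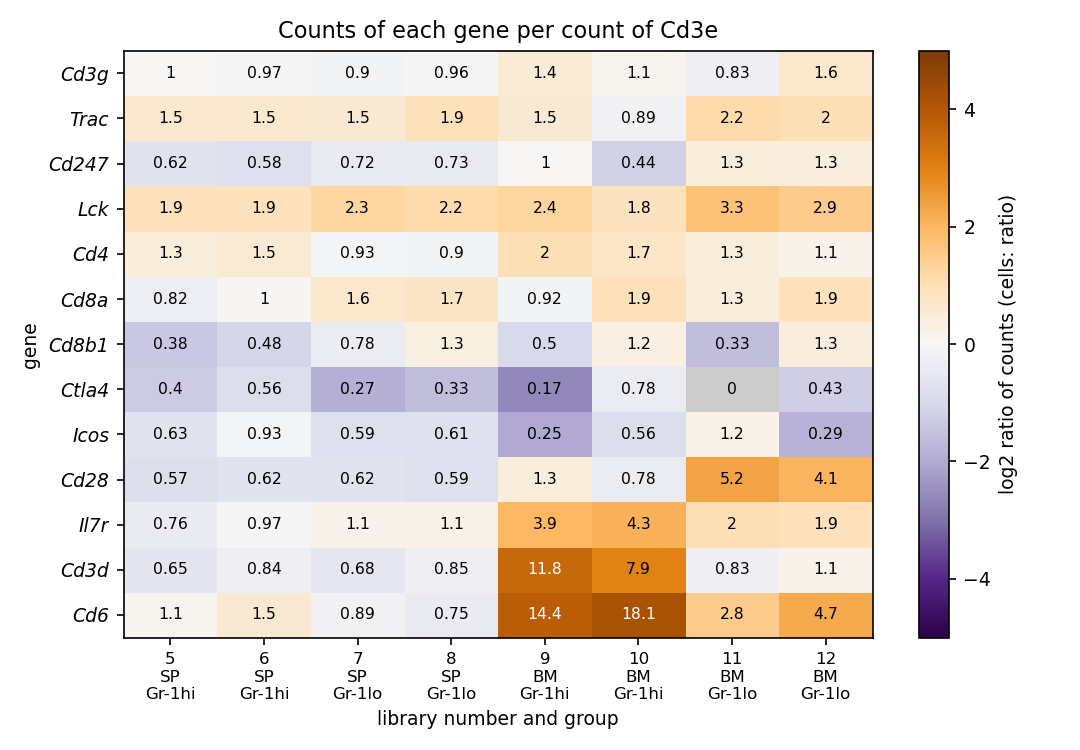
Counts of 13 T cell genes per count of *Cd3e* in each library, coloured by the log2 of the ratio, with the ratio printed in each cell and a grey cell where the count was 0. Ratios lie between 0.266 and 2.33 in the 4 SP columns, where *Cd4* is higher in Gr-1hi and *Cd8a* and *Cd8b1* are higher in Gr-1lo libraries. In BM Gr-1hi libraries *Cd3d* (11.8 and 7.89) and *Cd6* (14.4 and 18.1) stand furthest above that range, and *Il7r* (3.92 and 4.33) is also above it. In BM Gr-1lo libraries *Cd28* (5.17 and 4.14), *Cd6* (2.83 and 4.71) and *Lck* (3.33 and 2.86) are above it.

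Other genes of the pathway were taken from 6 lists with 63 genes, of which 58 passed the filter, 26 of them with fewer than 2 BM libraries that met it. For these 26 the filter favoured a higher value in SP. Of the 58 tested, 45 were called higher in SP and none lower in Gr-1lo cells, beside 3.84% and 0.215% of all genes tested. In Gr-1hi cells 47 were called higher and none lower, beside 14.0% and 1.48%. The same shares stand beside the counts of each list below. Among the 32 genes that met the filter in at least 2 BM libraries, 22 were higher in SP in Gr-1lo cells and 21 in Gr-1hi cells. The median log2 FC of the 58 genes was 3.24 in Gr-1lo and 3.54 in Gr-1hi cells, or 3.20 and 3.51 with the 11 and 3 genes that had at most 3 counts in BM set to their bound. The Gr-1lo count fell to 27 without library 12 and to 4 with the exact test on quantile-normalized TPM, which called 19 in Gr-1hi cells. Within BM, 24 were higher in Gr-1hi cells and 5 lower, beside 24.2% and 33.1% of all genes tested. Within SP 45 were higher and 2 lower, beside 22.3% and 27.4%.

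The receptor list held 8 genes, and of the 7 tested 4 in Gr-1lo and 7 in Gr-1hi cells were higher in SP. *Trbc2* and *Trbc1*, the constant regions of the beta chain, had log2 FCs of 3.83 (SE 0.32) and 4.26 (SE 0.35) in Gr-1lo and 5.02 (SE 0.33) and 4.93 (SE 0.35) in Gr-1hi cells, and as near-identical copies they may share reads. *Cd247*, the zeta chain, rose by 3.59 (SE 0.49) and 4.18 (SE 0.49). All 6 coreceptor and adhesion genes were called in Gr-1lo and 5 in Gr-1hi cells. *Cd8b1*, the partner of *Cd8a*, had log2 FCs of 4.76 (SE 0.63) and 3.53 (SE 0.60), *Cd2* 3.94 (SE 0.55) and 4.44 (SE 0.53), and *Cd5*, a brake on receptor signalling, 2.94 (SE 0.46) and 5.56 (SE 0.56). *Cd6* was the exception in Gr-1hi cells, where it was at 12.8 and 10.1 CPM in SP and 6.47 and 6.73 in BM, a log2 FC of 0.79 (SE 0.23, adjusted p = 0.0268) below the FC required.

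Of 14 proximal signalling genes 10 were higher in SP in each subset. *Lcp2* (155 to 476 CPM), *Ptpn22* (37.9 to 68.6 CPM) and *Fyn* (2.65 to 31.3 CPM), which myeloid cells also express, had the highest levels. *Lcp2* and *Ptpn22* were not called between SP and BM in either subset, with log2 FCs between -0.18 and 0.50, and *Fyn* rose by 2.79 (SE 0.23) in Gr-1hi cells, with 0.80 (SE 0.19, adjusted p = 0.0508) in Gr-1lo cells.

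Of 11 costimulatory and inhibitory genes, 8 in Gr-1lo and 9 in Gr-1hi cells were higher in SP. *Icos*, the costimulatory receptor whose mRNA Roquin represses, was at 7.41 and 6.38 CPM in SP Gr-1hi, 1.35 and 1.98 in SP Gr-1lo, 0.112 and 0.206 in BM Gr-1hi, and 0.143 and 0.0378 in BM Gr-1lo libraries. Its log2 FC was 4.20 (SE 0.47) in Gr-1lo and 5.43 (SE 0.47) in Gr-1hi cells. *Btla*, an inhibitory receptor, was abundant in all groups except BM Gr-1hi, with 44.6 and 46.7 CPM in BM Gr-1lo and 1.98 in both BM Gr-1hi libraries. *Slamf6* and *Tnfrsf18* were the other 2 most abundant genes of this list, and in Gr-1hi cells *Slamf6* rose by 3.68 (SE 0.33) in SP while *Tnfrsf18* was not called (0.62, SE 0.23, adjusted p = 0.0733).

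Transcription factors (12 genes) were higher in SP for 10 genes in Gr-1lo and 9 in Gr-1hi cells. Their most abundant members were *Ets1* (20.5 to 268 CPM), *Satb1* (9.50 to 187 CPM) and *Maf* (3.80 to 45.4 CPM). *Ets1* and *Satb1* were higher in Gr-1hi than in Gr-1lo cells of both tissues, and in Gr-1hi cells their SP values were not called against BM (log2 FC -0.33 and -0.63). *Tcf7*, a factor of naive T cells, rose by 3.20 (SE 0.37) in Gr-1lo and 5.39 (SE 0.42) in Gr-1hi cells. Among 12 cytokines and cytokine receptors, 8 of them tested, 7 were higher in SP in each subset. *Il21r*, *Il2rb* and *S1pr1* had the highest levels, and the log2 FC of *Il2rb*, a receptor chain for IL-2 and IL-15, was 3.27 (SE 0.30) and 2.97 (SE 0.28). *Il17a* had 0 counts in all 8 libraries.

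Among pathway genes the interaction was called and positive, with a larger SP excess in Gr-1hi cells, for *Btla* (4.58, SE 0.19), *Slamf6* (2.92, SE 0.42), *Tcf7* (2.19, SE 0.60), *Grap2* (2.03, SE 0.37), *Fyn* (2.00, SE 0.29) and *Il21r* (2.00, SE 0.32). It was called and negative for *S1pr1*, the receptor for exit from lymphoid tissue (-3.71, SE 0.51), *Ets1* (-1.50, SE 0.20) and *Cd6* (-1.41, SE 0.36). These 3 genes were each higher in BM Gr-1hi than in BM Gr-1lo cells by log2 FCs of 5.86, 3.55 and 3.75, beside 4.99 for *Cd3d*.

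**Figure D4:**
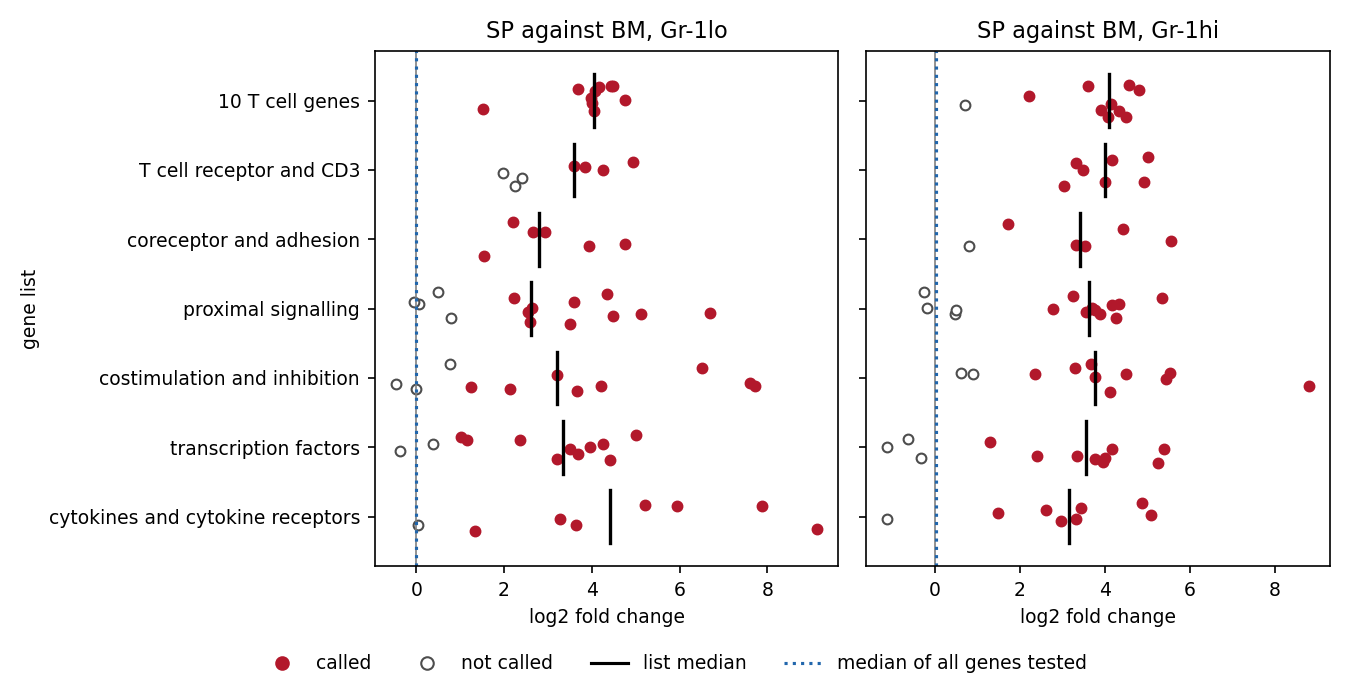
Log2 FC between SP and BM of the 10 T cell genes and of 6 lists of pathway genes, in Gr-1lo (left) and Gr-1hi (right) cells, with 1 point per gene that passed the filter, filled where called. Black bars are list medians, and the dotted line is the median of all genes tested (-0.01 and 0.03). All list medians lie at 2.62 or above, and open points near 0 include *Lcp2* and *Ptpn22*.

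Counts on V and J segments of the receptor genes were read as well, without any reading of their junctions. Of 178 V segments of the 4 receptor loci in the table, 118 and 96 had at least 1 count in SP Gr-1hi, 83 and 114 in SP Gr-1lo, 17 and 20 in BM Gr-1hi, and 18 and 25 in BM Gr-1lo libraries. Thinned to the depth of the shallowest library, the expected numbers were 115, 92.5, 79.9, 92.8, 16.1, 20.0, 16.8 and 22.5 in libraries 5 to 12, so SP and BM did not overlap. The V segments together had 967, 522, 279, 718, 76, 57, 33 and 48 counts in these libraries. The number of segments was not compared at equal V counts, so it may only follow these totals. All 14 beta J segments had counts in each SP library, against 4 to 10 of them in BM libraries. In BM Gr-1hi cells 1 segment, *Trbv1*, held 50 of 59 and 29 of 43 beta V counts, or 84.7% and 67.4%, against 4.71% to 14.4% in SP libraries and 31.6% and 24% in BM Gr-1lo libraries. *Trbv1* was singled out after its values were seen. Without it, 9 and 14 beta V counts remained in BM Gr-1hi libraries, and 13 and 19 in BM Gr-1lo libraries.

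Marker lists of other cell types were read beside the T cell genes. The sum of 10 B cell genes was 537 and 360 CPM in SP Gr-1hi, 66.7 and 83.8 in SP Gr-1lo, 19.9 and 16.3 in BM Gr-1hi, and 8.07 and 9.90 in BM Gr-1lo libraries, in the same order of groups as the T cell sum. Between group means it was 8.38 times higher in SP for Gr-1lo and 24.8 times for Gr-1hi cells, beside 13.7 and 9.55 times for the T cell genes. The sum of 8 NK cell genes ran from 0.512 CPM in BM Gr-1lo to 14.5 CPM in SP Gr-1hi libraries, again in that order, and was 8.28 and 6.02 times higher in SP. Of the B cell genes 9 in Gr-1lo and all 10 in Gr-1hi cells were called higher in SP, and of the 7 NK cell genes tested 3 and 5. Of all genes tested, 3.84% in Gr-1lo and 14.0% in Gr-1hi cells were called higher. Some B cell, NK cell and dendritic cell genes met the filter in fewer than 2 BM libraries, and for these it favoured a higher value in SP. No gene of the B cell or NK cell list was at 0 in both libraries of a group. The erythroid list was 24.9 and 11.9 times higher in SP, with *Hba-a1* the most abundant. Its sum was 217 and 731 CPM in SP Gr-1hi libraries, and the ratio in Gr-1hi cells was 5.46 without library 6 and 18.4 without library 5. The summed CPM of the dendritic cell list was 2.72 and 2.86 times higher in SP, of the plasma cell list 1.34 and 3.34 times and of the splenic macrophage list 1.34 and 1.63 times. Abundant genes weigh most in such sums. In Gr-1lo cells *Xbp1* alone held means of 260 CPM in SP and 228 in BM, of plasma cell sums of 326 and 243. By gene, 5 in Gr-1lo and 7 in Gr-1hi cells of the 7 plasma cell genes tested were called higher, with median log2 FCs of 1.81 and 3.32. Of 9 splenic macrophage genes, 5 were called higher in each subset. Of 8 dendritic cell genes, 2 and 3 were, and 1 was called lower in Gr-1hi cells. The eosinophil and basophil list (1.17 and 1.01 times) and the platelet list (1.54 and 0.471 times) did not follow the T cell genes. By mean CPM the leading gene was *Cd22* among B cell, *Gzma* among NK cell, *Itgax* among dendritic cell, *Xbp1* among plasma cell, *Slc40a1* among splenic macrophage, *Siglecf* among eosinophil and basophil, and *Gp1bb* among platelet genes. In both BM Gr-1hi libraries *Tnfrsf17* (plasma cell) and *Klf1* (erythroid) had no count, and in both BM Gr-1lo libraries *Epor* (erythroid) and *Ppbp* (platelet) had none. The T cell sum per B cell sum was 0.219 and 0.207 in SP Gr-1hi, 0.375 and 0.450 in SP Gr-1lo, 0.597 and 0.504 in BM Gr-1hi, and 0.274 and 0.240 in BM Gr-1lo libraries. *Cd3d* made up 44.7% and 35.7% of the T cell sum in BM Gr-1hi libraries and 4.63% to 7.74% elsewhere. Without *Cd3d* the T cell sum in BM Gr-1hi libraries was 6.58 and 5.28 CPM, still between the SP Gr-1lo and BM Gr-1lo libraries. The high ratio to the B cell sum in BM Gr-1hi libraries rested in large part on *Cd3d*. Without that gene the T cell sum in SP Gr-1lo libraries was 23.5 and 35.0 CPM. Per B cell sum, both BM Gr-1hi libraries then lay below both SP Gr-1lo libraries. The part of other cells in the levels of the T cell genes was not tested.

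**Figure D5:**
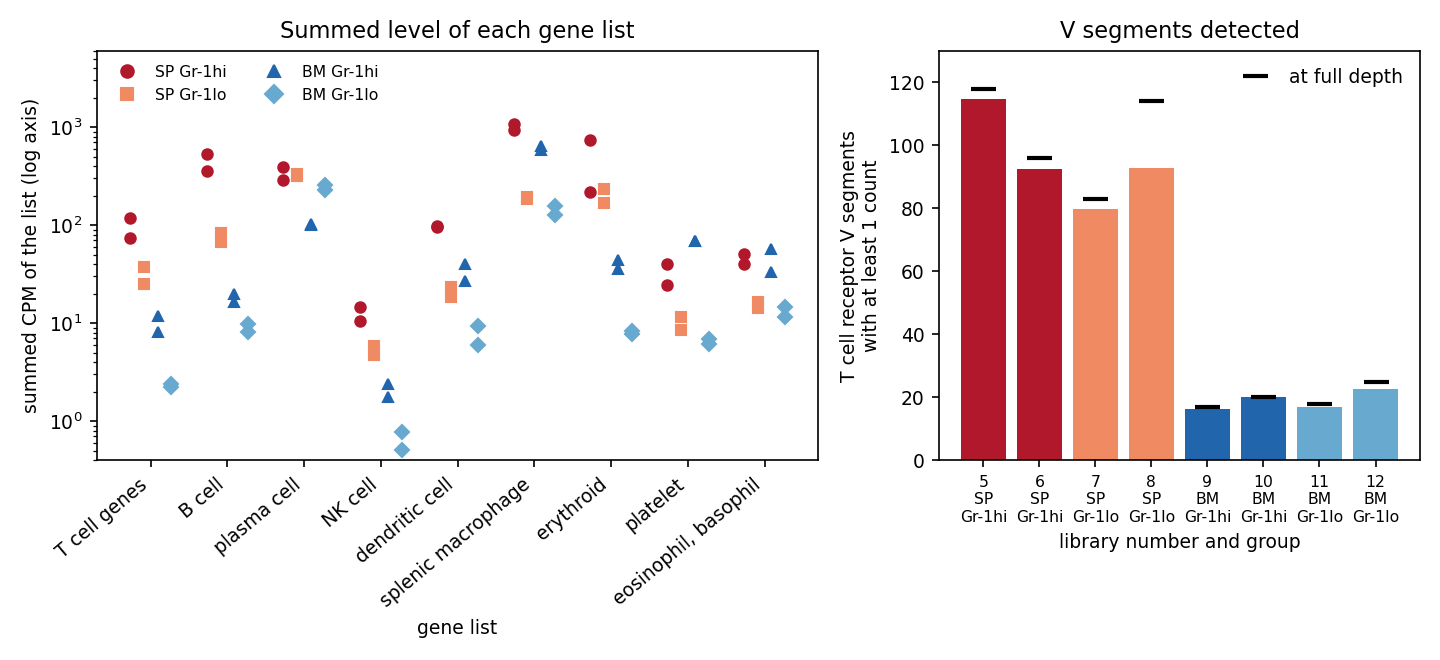
Left, summed CPM (log axis) of the 10 T cell genes and of marker lists of other cell types in each library, shaped and coloured by group. Right, number of T cell receptor V segments with at least 1 count, as bars for the number expected at the depth of the shallowest library and as black lines at full depth. The B cell and NK cell lists keep the order of groups seen for T cell genes, and SP libraries detect 83 to 118 V segments where BM libraries detect 17 to 25.

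Over the 8 libraries, the 45 pairs among the 10 genes had Pearson correlations of log2 CPM between 0.595 and 0.998 with a median of 0.96. Outside the 10 genes, those most like the summed CPM of *Cd3e*, *Cd3d* and *Cd3g* among 14410 genes were *C1qb* (r = 0.988), *Relb* (0.986), *Rgl1* (0.981), *Axl* (0.978) and *Gm43961* (0.976). These are correlations over 4 groups of 2 libraries that share tissue and sort, and describe the order of groups. In BM Gr-1hi libraries *Cd3d* gave 5.31 and 2.93 CPM of CD3 sums of 6.39 and 3.71 CPM, so the ranking follows that gene there. The CD3 sum was also logged without the offset added to the other genes, which flattens genes of low CPM. The ranking therefore does not show that these genes follow *Cd3e* or *Cd3g* more closely than other T cell genes do.

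Some positions limit single values. *Rpl18-ps1*, a processed pseudogene on the same strand, overlaps *Ctla4* and had 99, 58, 316, 837, 76, 54, 328 and 238 counts in libraries 5 to 12, above the counts of *Ctla4* itself in all libraries except 5 and 6. *Gm48719* and *Gm48720* overlap *Cd3e* with at most 4 counts in any library. *Lag3* lies 16139 bases from *Cd4*, and *Cd28* and *Ctla4* are neighbours on chromosome 1 (60716800-60773359 and 60887000-60915832, both plus strand). The other genes lie at 6:124864692-124888221 (*Cd4*, minus), 6:71373427-71379173 (*Cd8a*, plus), 4:129548344-129573641 (*Lck*, minus), 15:9505788-9530176 (*Il7r*, minus) and 14:54220521-54224206 (*Trac*, plus) in GENCODE M21.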

How the data were processed

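Gene counts of 8 libraries from 4 groups of sorted myeloid cells were analysed. Per the labels and the methods of the study, stranded mRNA libraries were checked with FastQC, filtered with Sickle, aligned to GRCm38 with STAR and counted per gene with featureCounts. The authors deposited these counts without normalization for 54188 genes. Samples were grouped by their labels. EdgeR 4.0.16 was run in R 4.3.3. Its filterByExpr left 17650 genes, libraries were scaled by TMM, and a robust quasi-likelihood model of the 4 groups used all 8 libraries (4 residual degrees of freedom). Benjamini-Hochberg adjustment covered every gene tested, and genes were called where the adjusted p was 0.05 or less and the FC 2 or more. With 2 libraries a group, p values set group differences against the spread between these samples, estimated over the 4 groups together. No label shows that this is a spread between mice. Replicates differed beyond counting noise (chi-square per degree of freedom of 18.9 to 66.7), so all 8 were kept as separate samples.

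The 10 T cell genes and all gene lists were chosen with earlier results of these data known. The text names the 10 genes, the 3 genes of each pathway list with the highest mean CPM, *Icos*, *Cd247*, *Cd8b1*, pathway genes called in the interaction, the 5 genes most like the CD3 sum, chromosomal neighbours within 20 kb, checks of the labels, V segments as a group and the leading or undetected genes of other lists. Values of 2 list genes are not reported here. *Il17a* and *Trbv1* were named after their values were seen. TPM used exon lengths of GENCODE M21, which held 53947 of the 54188 identifiers. Correlations used log2(CPM + 0.5), but the CD3 sum was logged without the 0.5. The ranking against that sum used genes with at least 1 CPM in 2 libraries. The model was tested on simulated data. Alternatives were RLE and upper-quartile scaling, no filter, DESeq2 1.42.0, a fit of the 4 libraries compared, a stricter threshold, edgeR's exact test on quantile-normalized TPM, and leaving out each library or libraries 5 and 7. Promoter sequences are those of RefSeq.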

Additional observations from a re-analysis of the deposited data

Results flagged for a closer look

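The difference between SP and BM was not the same in the Gr-1hi and Gr-1lo cells for 3 of the 10 T cell genes, by the interaction in the edgeR model. The log2 FC in Gr-1hi cells minus that in Gr-1lo cells was -3.37 for *Cd3d*, -1.47 for *Il7r* and 2.09 for *Cd28*. With each of the 8 libraries left out in turn, the *Il7r* and *Cd28* calls were each lost in 7 fits and the *Cd3d* call in 1. *Cd3d* and *Il7r* were higher in BM Gr-1hi than in BM Gr-1lo libraries (142 and 71 against 5 and 8 counts, and 47 and 39 against 12 and 13), and *Cd28* had 16 and 7 counts in BM Gr-1hi and 31 and 29 in BM Gr-1lo libraries. No group was large enough for a check of single outlying libraries.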

How the results depend on the processing

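No paired analysis was possible because no label ties libraries to individual mice. The study describes the BM cells as autologous, so libraries of different groups may share mice. Over the alternatives, 634 gene values of the 10 genes kept their direction and side of the threshold, 63 lost a call, 6 gained one and 21 changed sign, none of the last called. Under the stricter threshold (adjusted p under 0.01, FC over 8) 9 of the 10 genes were called in Gr-1lo cells between SP and BM, 1 within BM, 0 within SP and 0 in the interaction (where 10 and 3 genes reached 0.05 without adjustment), and of the pathway genes 25, 13, 0 and 2. The exact test on quantile-normalized TPM called 1 gene between SP and BM in Gr-1lo cells, 1 within BM and 5 within SP, and of the pathway genes 4, 8 and 18, with 19 between SP and BM in Gr-1hi cells. Without libraries 5 and 7, 4 genes and 24 pathway genes were called within SP, and the interaction was -0.56 for *Cd3e*, -0.62 for *Cd3g*, -0.47 for *Cd4*, -0.28 for *Lck* and -0.13 for *Trac*. The cause of these shifts was not tested.

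Leaving out 1 library at a time gave 8 to 10 of the 10 genes between SP and BM in Gr-1lo cells, 9 in Gr-1hi cells, 3 to 7 within BM, 9 to 10 within SP and 0 to 2 in the interaction. The pathway genes ranged from 27 to 45, 43 to 50, 25 to 32, 36 to 51 and 8 to 13. Signs changed in the interaction, which ranged from -0.47 to 0.36 for *Cd3e*, -0.51 to 0.49 for *Cd3g*, -0.39 to 0.33 for *Cd4*, -0.22 to 0.67 for *Lck* and -3.64 to 0.92 for *Ctla4*, and for *Cd28* within BM (-0.97 to 0.10). The limits are 2 libraries a group, at most 14 counts per BM Gr-1lo library for 8 of the 10 genes, and no record of which libraries share a mouse.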
